A study of Mus musculus with 19 samples.

Results

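The transcripts examined here encode 8 ETS transcription factors that act at the end of the ERK pathway: the PEA3 group (Etv1, Etv4 and Etv5), the pair Ets1 and Ets2, and the ternary complex factors Elk1, Elk3 and Elk4. Their probe sets were found by gene symbol in the mouse gene annotation of the array; no signal or fold change enters that rule, although earlier results of these data were known when the genes were listed. Of 45101 probe sets on the array, 23 mapped to 1 of these genes alone and 3 mapped to both Etv1 and Gm5454. Levels were followed over 11 groups of NIH3T3 cells, and 7 of the 8 genes could be tested among 14996 genes, since Etv1 had no probe set of its own. Of the 26 probe sets, 23 passed the filter on low values, and the 3 that did not were 1446390_at (Elk1), 1437809_x_at (Ets2) and 1445314_at (Etv1 or Gm5454).

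NIH3T3 is an established line of mouse embryonic fibroblasts. All 19 samples had been starved for 48 h in 0.1% serum, and all groups but the quiescent one then received FGF (bFGF) at 50 ng/ml. U0126, which blocks MEK, the kinase that activates ERK, was present at 20 µM in 6 of the groups. It was given at -0.5 h, before FGF, to groups harvested at 1 h (1 array), 4 h, 7 h and 12 h (2 arrays each). It was given at 1 h to a group harvested at 7 h, and at 7 h to a group harvested at 12 h (1 array each). FGF alone was sampled at 1 h (1 array), 4 h, 7 h and 12 h (2 arrays each). Quiescent cells gave 3 arrays, of which replicates 1a and 1b belong to 1 experiment and were averaged. The groups with 1 array all came from experiment 1. The labels name no vehicle for the FGF groups, and no sample had U0126 without FGF. Differences from quiescence therefore include those of time and handling, and whether replicates were separate cultures is not stated, so p-values measure a spread that may be technical. The comparisons ask how these transcripts follow FGF on the way from quiescence towards S phase and how far they follow MEK activity, early or throughout.

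ERK phosphorylates several ETS proteins directly. Phosphorylated ternary complex factors, which sit with the serum response factor SRF on serum response elements, switch on immediate-early genes. Phosphorylated ETS1 and ETS2 recruit the coactivators CBP and p300. The PEA3 genes are in addition known as transcriptional outputs of FGF signalling in the vertebrate embryo, where their transcripts mark cells that receive FGF. An array reads transcripts and not phosphorylation, so the values below concern the amount of these RNAs.

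Signals are MAS5 values on a linear scale, which cannot be compared between probe sets. Array medians ranged from 60.2 to 88.3, and precision is limited by how few arrays each group had. Differences are log2 differences ± SE on the log2(signal + 13.6) scale, which understates changes at low signals. They were tested with limma across all genes, and a gene is called where its Benjamini-Hochberg adjusted p was under 0.05. The 1 h groups and both late additions had 1 array each, so the SE and p of any comparison with them assume that a lone array varies as the replicated groups do. Signals under 45.2, the 40th percentile of all values, are described as low. Of 11 fibroblast markers, 10 had a median above that level (Lum, at 36.6, did not). Of 5 measured leukocyte markers 2 had a median above 45.2, Cd68 (59.1) and Adgre1 (58.9). The same held for 1 of 4 endothelial markers (Kdr, 58.5) and 1 of 3 muscle markers (Des, 49.2). Of 6 epithelial markers 3 had a median above it, Epcam (298.5), Krt8 (58.5) and Cdh1 (46.1), while Krt18, Krt19 and Cldn4 did not (15.6 to 34).

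The promoters of the 3 genes that were called most often in what follows are shown because their transcripts moved together or apart under the same treatments. RefSeq (GRCm38.p6) promoters, from 250 bases before to 50 after the start site, were at hand for 6 of the 8 genes, with 10 start sites; Etv4 and Ets1 are named only. Capitals mark GGAA, the core of the ETS binding sequence, on either strand (TTCC on the other). Etv5 lies on the minus strand of chromosome 16, with start sites 1 (chr16:22438319-22438618) and 2 (chr16:22439521-22439820). Ets2 lies on the plus strand of the same chromosome (chr16:95702157-95702456) and Elk3 on the minus strand of chromosome 10 (chr10:93311110-93311409).

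Etv5 start 1: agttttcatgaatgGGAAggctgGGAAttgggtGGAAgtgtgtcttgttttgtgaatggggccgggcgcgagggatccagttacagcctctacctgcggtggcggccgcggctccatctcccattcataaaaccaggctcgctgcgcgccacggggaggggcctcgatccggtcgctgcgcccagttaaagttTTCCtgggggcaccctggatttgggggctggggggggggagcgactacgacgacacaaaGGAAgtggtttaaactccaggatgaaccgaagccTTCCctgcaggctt

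Etv5 start 2: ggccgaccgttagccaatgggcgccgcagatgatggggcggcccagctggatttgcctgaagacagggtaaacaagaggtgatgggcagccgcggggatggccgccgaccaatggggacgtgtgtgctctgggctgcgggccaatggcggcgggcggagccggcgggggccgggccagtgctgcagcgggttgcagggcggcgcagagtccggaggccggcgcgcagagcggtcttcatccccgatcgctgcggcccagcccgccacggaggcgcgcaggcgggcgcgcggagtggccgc

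Ets2: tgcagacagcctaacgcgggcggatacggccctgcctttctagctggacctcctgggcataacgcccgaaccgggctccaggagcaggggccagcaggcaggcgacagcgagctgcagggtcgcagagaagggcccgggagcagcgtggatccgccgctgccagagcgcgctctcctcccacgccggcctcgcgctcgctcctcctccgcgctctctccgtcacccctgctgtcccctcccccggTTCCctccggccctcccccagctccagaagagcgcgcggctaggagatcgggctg

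Elk3: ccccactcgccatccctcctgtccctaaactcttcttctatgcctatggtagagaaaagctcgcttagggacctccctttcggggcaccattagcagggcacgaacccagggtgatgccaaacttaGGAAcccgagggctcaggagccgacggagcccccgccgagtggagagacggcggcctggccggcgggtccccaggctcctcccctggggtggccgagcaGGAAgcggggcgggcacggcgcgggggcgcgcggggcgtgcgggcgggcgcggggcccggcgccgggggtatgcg

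The first Etv5 promoter held 6 GGAA cores, at -236, -227, -217, -57, 2 and 36 from the start site, and the second held 0. The Ets2 promoter held 1 and that of Elk3 held 2. The core is common, since 96% of 32851 promoters of this length held at least 1, with a median of 3, and 15.7% held 6 or more. None of these 4 sequences held CCGGAA (a longer ETS site), TGACGTCA (a CRE), TGANTCA (an AP-1 site) or a CArG box (bound by SRF). Nor did they hold TGAATGAA or TGAATGGA, the only forms of the CIC site that were searched. Other forms of the CIC site were not searched, so their absence is not shown. Among the 10 promoters the 1 match to any of these longer motifs was CCGGAA at -68 from the first start site of Elk4, a motif present in 14.9% of all promoters. The shares of all promoters with the other motifs were 1.3% for TGAATGAA, 1.21% for TGAATGGA, 1.79% for TGACGTCA, 7.81% for TGANTCA and 1.63% for the CArG box. GGAA overlaps CCGGAA, and both strands were searched.

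Etv5, Elk3 and Ets2 carried all the calls among the 7 tested genes, and they moved in different directions. Averaged over 4, 7 and 12 h, U0126 from -0.5 h lowered Etv5 by 7.38-fold (log2 difference -2.88 ± 0.12, adjusted p = 6.55e-10) and Elk3 by 1.64-fold (-0.71 ± 0.08, 1.13e-05), and raised Ets2 by 2.97-fold (1.57 ± 0.11, 1.11e-07), with 6 arrays against 6. That is 3 of 7 tested genes called, against 22% of all genes in that comparison; 2 were lower, against 10.3% of all genes, and 1 was higher, against 11.7%. The median over the 7 genes was -0.21, against 0.01 over all genes. With the experiment number as a block in the model, Elk4 joined them (4 of 7, against 30.6% of all genes). Singly, the same 3 genes were called at 4 h (background 5.93%; 4 with the block, 13%), at 7 h (6.07%) and at 12 h (12%). At 1 h none was called (background 0.18%), with 2 at an unadjusted p under 0.05 and 1 with the block (1.05%). Without U0126, FGF against quiescence gave 0 calls at 1 h (0.48%; 2 at an unadjusted p under 0.05, 1 with the block, 1.57%) and 1 at 4 h (8.9%; 2 with the block, 17.7%). It gave 2 calls at 7 h (12.6%) and 2 at 12 h (20.3%). The U0126 effect did not pass limma's F test for a difference between 4, 7 and 12 h in any of the 7 genes (1.03% of all genes did), and 0 had an unadjusted p under 0.05 or passed with the block.

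Etv5 (ERM; chr16:22381313-22439570), a PEA3 factor, had the widest span of the 7 genes, 4.48 on the log2 scale between its highest and lowest group. On probe set 1428142_at it read 186 at 1 h with U0126 and 532 without, and the 3 quiescent arrays read 509, 414 and 545. At 4 h it read 246 and 299 with U0126 against 2087 and 1521 with FGF alone. At 7 h it read 239 and 222 with U0126 against 1859 and 1629.9 with FGF alone. At 12 h the values were 119.9 and 167 with U0126 and 1439.8 and 1289 with FGF alone. On this probe set the single FGF array at 1 h thus lay among the quiescent arrays. Every later FGF array lay well above them and every U0126 array below them. On 1420998_at and 1450082_s_at the 1 h FGF array (225.7 and 177.1) lay above all quiescent arrays (at most 199.5 and 147.8).

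Against quiescence Etv5 rose by 1.81 ± 0.21 at 4 h (adjusted p = 0.000137), by 1.77 ± 0.21 at 7 h (0.000101) and by 1.42 ± 0.21 at 12 h (0.000247), 2 samples against 2. At 1 h, with 1 array, the difference was 0.09 ± 0.26 (adjusted p = 0.938). On this probe set of highest mean, Etv5 rose by 1.72 ± 0.26 between 1 and 4 h (adjusted p = 0.00194). A smaller rise before 1 h is not excluded, since the other Etv5 probe sets already lay above all quiescent arrays at 1 h. The background of that comparison was 5.18%, and 2 of the 7 genes were called in it, Etv5 and Ets2 (3 with the block, 14.3%). From 4 to 7 h and from 7 to 12 h no ETS gene was called (background 0.12% and 1.83%), with 1 at an unadjusted p under 0.05 in each and 0 with the block. Etv5 differed by -0.03 ± 0.21 (adjusted p = 0.99) in the first and by -0.35 ± 0.21 (0.611) in the second.

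With U0126 from -0.5 h, Etv5 fell relative to FGF alone, with differences of -2.66 ± 0.21 at 4 h (adjusted p = 4.34e-06), -2.85 ± 0.21 at 7 h (1.57e-06) and -3.15 ± 0.21 at 12 h (3.67e-07). The same differences within experiment 1 were -3.02, -2.89 and -3.44, and within experiment 2 they were -2.29, -2.80 and -2.85. At 1 h, with 1 array against 1 and the spread taken from other groups, the difference was -1.45 ± 0.30 and did not pass (adjusted p = 0.0745; 0.0144 with the experiment as a block). Levels also went under those at the start: with U0126 it fell below quiescence, with differences of -0.85 ± 0.21 at 4 h (adjusted p = 0.0236), -1.08 ± 0.21 at 7 h (0.00493) and -1.73 ± 0.21 at 12 h (0.000223). The 1 h value against quiescence was -1.36 ± 0.26 (adjusted p = 0.0691; 0.015 with the block). This step below quiescence rests on 1428142_at, since neither 1420998_at nor 1450082_s_at was called for it (adjusted p from 0.191 to 0.952). With the block, 1420998_at was called at 7 h (-0.72 ± 0.31, adjusted p = 0.0448) and at 12 h (-0.80 ± 0.31, 0.0303). The call at 4 h was lost without quiescent replicate 2 (-0.73, adjusted p = 0.209) and without replicate 1 (-0.72, 0.165) or 2 (-0.98, 0.0519) of the U0126 group, and that at 7 h without quiescent replicate 2 (-0.95, 0.0704).

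For the rise with FGF at 4, 7 and 12 h and the fall with U0126 at those times, all 3 Etv5 probe sets were called in the same direction. Among all 34537 probe sets, U0126 called 3.6% at 4 h, 3.89% at 7 h and 7.91% at 12 h. The average U0126 effects on the 3 probe sets of Etv5 were -2.88, -2.27 and -1.94, and their signals correlated with r from 0.941 to 0.964 over the 19 arrays, which share their groups. Probe sets of 1 gene are not replicates.

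Of the 3 probe sets shared by Etv1 (ER81, a PEA3 factor; chr12:38780082-38870483) and Gm5454, the 2 that passed the filter rose with FGF from 4 h on and fell with U0126 at 4, 7 and 12 h, as Etv5 did. No value can be assigned to either gene alone. Probe set 1450684_at read 49.8 and 36.7 at 4 h with U0126, against 515 and 311 with FGF alone. At 7 h it read 32.9 and 51.9 with U0126 against 608 and 499 with FGF alone, and at 12 h it read 71 and 60.7 against 606 and 544. The quiescent arrays read 97.9, 146 and 131, and the 1 h arrays read 117 with U0126 and 99.9 without. No U0126 array at 4, 7 or 12 h overlapped the FGF arrays, and 2 of these 6 were under 45.2. Over 34537 probe sets the average U0126 effect was -3.04 ± 0.18 (adjusted p = 2.39e-08; 16.4% of probe sets called). The rise over quiescence was 1.58 ± 0.31 at 4 h (adjusted p = 0.00693; 5.2% of probe sets called), 2.02 ± 0.31 at 7 h (0.000896; 7.62%) and 2.08 ± 0.31 at 12 h (0.000326; 14%). The call at 4 h was lost without FGF 4 h replicate 1 (1.23, adjusted p = 0.105) and without quiescent replicate 2 (1.63, 0.0517). From 1 h to 4 h of FGF alone it rose by 1.87 ± 0.38 (adjusted p = 0.0156; 3.03% of probe sets called), a call that was lost without FGF 4 h replicate 1 (1.52, 0.0962). At 1 h the U0126 effect was 0.20 ± 0.43 (adjusted p = 0.999), where Etv5 had -1.45.

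The other shared probe set, 1422607_at, correlated with it at r = 0.966 over 19 arrays and gave an average U0126 effect of -3.56 ± 0.22 (adjusted p = 4.14e-08). It read 32.7, 42.8, 48.6, 40, 48.6 and 103 on the 6 U0126 arrays at 4, 7 and 12 h, against 700.0, 584, 613, 1096, 901 and 619 with FGF alone. With U0126, 1450684_at also fell below quiescence at 4 h (-1.30 ± 0.31, adjusted p = 0.0254; 4.49% of probe sets called) and at 7 h (-1.33 ± 0.31, 0.0183; 5.47%). Probe set 1422607_at did so too (-1.81 ± 0.38, 0.0131, at 4 h and -1.64 ± 0.38, 0.0198, at 7 h). Each of these 4 calls was lost without quiescent replicate 2 (-1.24, -1.27, -1.41 and -1.24 in that order, adjusted p from 0.151 to 0.268) and without at least 1 of the U0126 arrays (-1.74 to -1.08, 0.0612 to 0.207), and 2 of them without quiescent replicate 1b (-1.17 for 1450684_at at 4 h and -1.46 for 1422607_at at 7 h, 0.0513 and 0.0623). At 12 h neither was called. The rise of 1422607_at at 4 h (1.87 ± 0.38, adjusted p = 0.00952) was lost without FGF 4 h replicate 1 (1.74, 0.0831) or 2 (1.99, 0.0561). The third, 1445314_at, ranged from 1.6 to 48.8 and was not tested.

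Etv4 (Pea3; chr11:101769747-101785310), the gene that named the group, was low. On probe set 1423232_at the quiescent arrays read 14.1, 5.4 and 18.2, and the 1 h arrays read 11.5 with U0126 and 10.2 without. With FGF alone it reached 81.2 and 42.5 at 4 h, 51.7 and 145 at 7 h and 104 and 93 at 12 h, against 4.9 to 15.4 on the 6 U0126 arrays. Every one of those FGF arrays lay above every one of those U0126 arrays. Only 5 of the 19 arrays, all of them FGF alone at 4, 7 or 12 h, had this probe set above the 40th percentile of their array. It therefore passed the filter only through the samples in which it was high, while its U0126 and quiescent signals were all low. For that reason the text gives no fold change or test for it, and the separation of its arrays is a description only.

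The probe set that represents Etv4 among the 14996 genes, 1443381_at, has the higher mean but ranged only from 2.1 to 76.1, and its 2 arrays at 7 h with U0126 read 5.8 and 76.1. It was called in no comparison (average U0126 effect -0.64 ± 0.37, adjusted p = 0.267; -1.01, 0.0427, without FGF 7 h + U0126 replicate 2), and it correlated with 1423232_at at r = 0.445. The counts of genes above therefore hold Etv4 as not called.

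**Figure D1:**
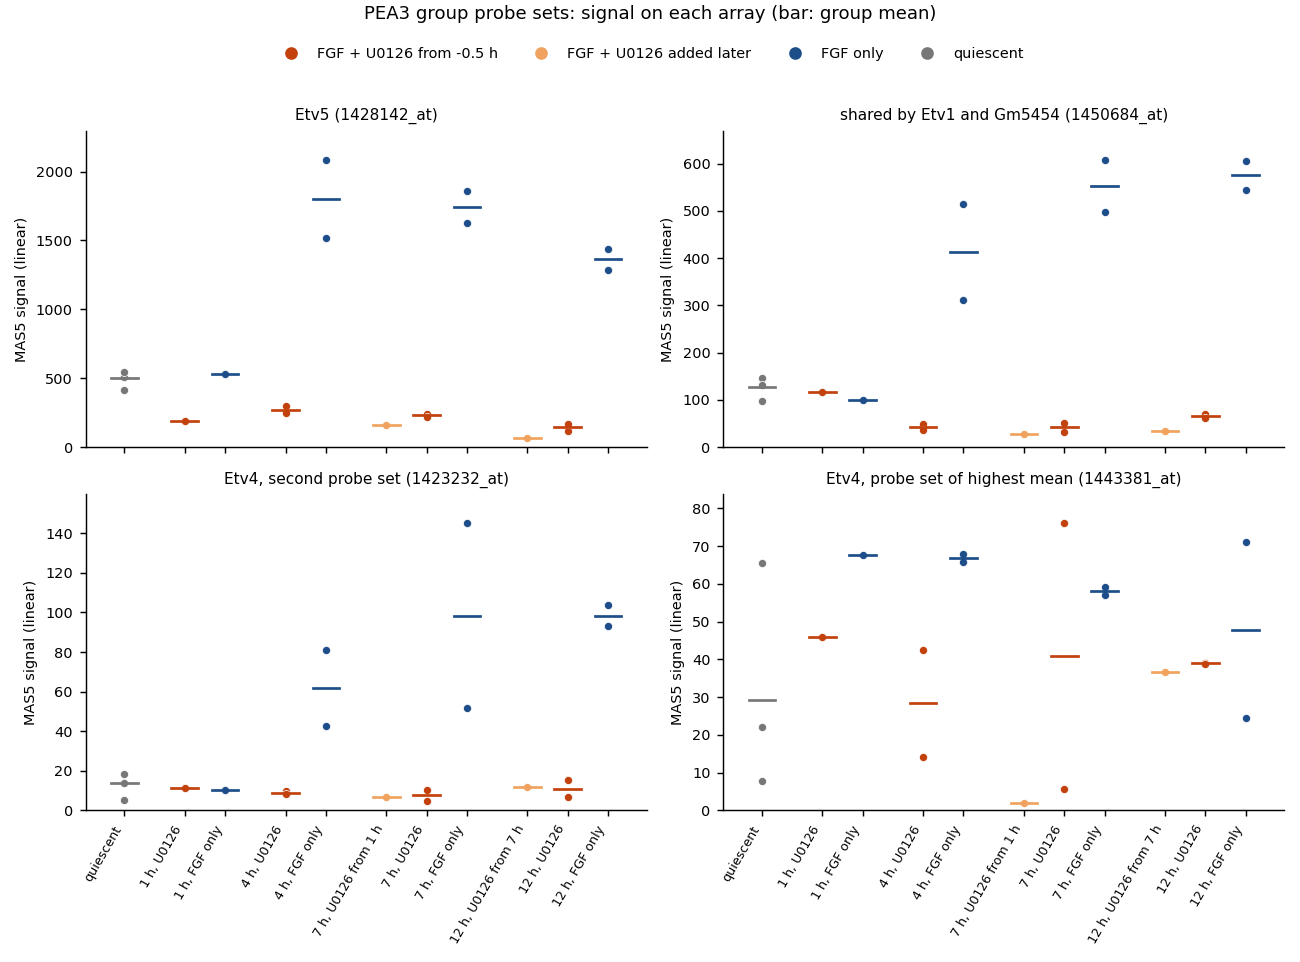
MAS5 signal (linear axis from 0) of 4 PEA3 probe sets on each of 19 arrays, by group along the horizontal axis; points are arrays, bars are group means, orange groups had U0126 from -0.5 h, light orange had it from 1 h or 7 h, blue had FGF alone and grey is quiescent. In 3 of the panels the FGF arrays from 4 h on stand above all others (for Etv5 between 1289 and 2087). In the panel of 1443381_at they do not. The panel of 1423232_at (Etv4) is a description only, since that probe set passed the filter only through FGF arrays.

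Ets2 (chr16:95702407-95721049) moved opposite to Etv5 with U0126 from 4 h on. It is an ETS factor that ERK phosphorylates and that is itself known as an early growth factor response gene. On probe set 1416268_at it read 1779.5 at 1 h with U0126 and 2185 with FGF alone, against 1360.1, 796 and 1056 in quiescent cells. At 4 h it read 2595 and 2988 with U0126 against 706 and 736 with FGF alone. At 7 h it read 2235 and 2443 with U0126 against 806 and 880.4 with FGF alone. The early level was thus high on both 1 h arrays, and from 4 h on it was high on the U0126 arrays and low on the FGF arrays, with no overlap. At 12 h the U0126 arrays read 1551 and 2632 and the FGF arrays 793 and 802.

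Between 1 and 4 h of FGF alone Ets2 fell by 1.58 ± 0.23 (adjusted p = 0.00171), while the median of all genes moved by -0.12 in that comparison. Against quiescence it was 1.05 ± 0.23 higher at 1 h, which did not pass (adjusted p = 0.0771; 0.00223 with the block, and 1.24 with 0.0352 without quiescent replicate 1a). At 4 h it differed by -0.53 ± 0.19 (adjusted p = 0.105; 0.0186 with the block, and -0.72 with 0.0409 without quiescent replicate 1b). With U0126 from -0.5 h Ets2 rose relative to FGF alone by 1.93 ± 0.19 at 4 h (adjusted p = 2.07e-05), by 1.46 ± 0.19 at 7 h (0.000238) and by 1.33 ± 0.19 at 12 h (0.000254). Within experiment 1 these were 1.86, 1.46 and 0.96, and within experiment 2 they were 2.0, 1.46 and 1.70. At 1 h the U0126 effect was -0.29 ± 0.27 (adjusted p = 0.96).

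Ets2 also rose above quiescence in the presence of U0126, by 1.40 ± 0.19 at 4 h (adjusted p = 0.000401), by 1.15 ± 0.19 at 7 h (0.00149) and by 0.94 ± 0.19 at 12 h (0.00913). The last call was lost without quiescent replicate 2 (0.95, adjusted p = 0.0678) and without replicate 2 of the U0126 group (0.56, 0.0987). In these 3 comparisons, 2 of 7 genes were called, Ets2 as higher and Etv5 as lower, against 7.38%, 9.07% and 5.42% of all genes (3 with the block at 4 h, 15%). In the same comparison at 1 h 0 were called (background 0.113%; 2 at an unadjusted p under 0.05 and 1 with the block, 0.367%). The second Ets2 probe set, 1447685_x_at, followed with r = 0.869 and an average U0126 effect of 2.27 ± 0.23 (adjusted p = 7.25e-06), called at 4 h and 12 h but not at 7 h (1.06 ± 0.41, adjusted p = 0.215). Against quiescence with U0126 it was called at 4 h (1.63 ± 0.41, adjusted p = 0.033), and at 7 h (1.45 ± 0.41, 0.051) and 12 h (1.29 ± 0.41, 0.109) only with the block (0.00618 and 0.0175). Its quiescent arrays read 151 (1a), 18.9 (1b) and 112 (2), so the pair of experiment 1 lay far apart and 1b was low. At 4 h of FGF alone it read 16.5 and 56.5. With FGF alone its 12 h arrays read 8.3 and 22.6, and it fell by 2.16 ± 0.41 from its 7 h arrays (adjusted p = 0.0171; 0.895% of probe sets called), where 1416268_at differed by -0.08 ± 0.19 (adjusted p = 0.944 among genes). The third, 1437809_x_at, did not exceed 49.

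Ets1 (chr9:32636241-32757820), the other ERK-phosphorylated member of that pair, showed no called change on its probe set of highest mean, 1452163_at. It read 2143 at 1 h with U0126 against 3168 with FGF alone, and 2646, 1670.1 and 2128 in quiescent cells. At 4, 7 and 12 h the U0126 arrays read 1839, 1654, 2247, 2725, 1984 and 2022, against 2159, 2005, 2854, 2439, 2384 and 2049 with FGF alone. The 1 h array with FGF alone was the highest of all 19, and elsewhere the groups lay close together. The average U0126 effect was -0.16 ± 0.08 (adjusted p = 0.19). From 1 h to 4 h of FGF alone it differed by -0.60 ± 0.17 (adjusted p = 0.0568; 0.018 with the block). Of the 4 Ets1 probe sets, none was called for the average U0126 effect (-0.21 to -0.12). One of them, 1426725_s_at, rose over quiescence by 0.67 ± 0.16 at 4 h (adjusted p = 0.0254), 0.68 ± 0.16 at 7 h (0.0171) and 0.58 ± 0.16 at 12 h (0.0243), where 1452163_at differed by -0.02, 0.32 and 0.06 and was not called. With U0126, 1426725_s_at lay 0.44, 0.53 and 0.46 above quiescence at those times and was called only with the block (adjusted p = 0.165, 0.0749 and 0.155; 0.0486, 0.0153 and 0.0403 with it). The probe sets of Ets1 correlated with each other by -0.316 to 0.458 over 19 arrays, so they do not give 1 profile for the gene.

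Elk3 (Net, Sap-2; chr10:93247415-93311159) is a ternary complex factor known to repress until it is phosphorylated by ERK. On 1448797_at it read 2385 at 1 h with U0126 and 2392 with FGF alone, against 2486, 2532 and 2434 in quiescent cells. At 4 h it read 2038 and 1690.2 with U0126 against 3281 and 2969 with FGF alone, and at 7 h 1851 and 2228 against 3867 and 3558. At 12 h it read 3129 and 2878 with U0126 against 4214 and 4455 with FGF alone. FGF arrays lay above U0126 arrays at each of these times, and both groups were higher at 12 h than at 4 h. As a result the 12 h U0126 arrays overlap the 4 h FGF arrays.

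Against quiescence Elk3 rose by 0.58 ± 0.14 at 7 h (adjusted p = 0.0117) and by 0.81 ± 0.14 at 12 h (0.000729), and differed by 0.34 ± 0.14 at 4 h (0.164). With U0126 it fell relative to FGF alone, with differences of -0.75 ± 0.14 at 4 h (adjusted p = 0.00388), -0.87 ± 0.14 at 7 h (0.0011) and -0.53 ± 0.14 at 12 h (0.0204). The 12 h call was lost when any 1 of its 4 arrays was left out (-0.59 to -0.47, adjusted p from 0.056 to 0.148). The 4 h call was lost without replicate 2 with U0126 (-0.61, 0.0566) or replicate 1 of FGF alone (-0.67, 0.052), and the rise at 7 h without replicate 1 of FGF alone (0.52, 0.0884) or quiescent replicate 2 (0.56, 0.084). At 1 h the U0126 effect was -0.00 ± 0.19 (adjusted p = 0.999).

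Other Elk3 probe sets gave larger differences. On 1435143_at the U0126 arrays read 293, 449.7, 417, 437, 576 and 563 at 4, 7 and 12 h, against 947, 1057, 1268, 1610.4, 1347 and 1328 with FGF alone. Here the 6 U0126 arrays lie below all 6 FGF arrays and below the quiescent ones (646, 723 and 862). On 1448797_at, by contrast, the 12 h U0126 arrays (3129 and 2878) lay above the quiescent ones (2434 to 2532). The average U0126 effect on 1435143_at was -1.45 ± 0.12 (adjusted p = 6e-07), and on 1417662_at it was -1.18 ± 0.12 (6.12e-06). These 2 correlated at r = 0.975 with each other and at 0.804 and 0.779 with 1448797_at. Both fell below quiescence at 4 h with U0126 (-1.05 ± 0.20, adjusted p = 0.00798, and -0.95 ± 0.21, 0.0159), where 1448797_at differed by -0.41 ± 0.14 (adjusted p = 0.0963, and 0.0263 with the block, among genes). The fourth, 1445886_at, ranged from 11.2 to 148 and was not called (-0.65 ± 0.24, adjusted p = 0.0803; 0.0351 with the block).

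Elk4 (SAP-1; chr1:132007577-132026448) and Elk1 (chrX:20933395-20950608), both activating ternary complex factors, were not called in any comparison. Elk4 on 1427162_a_at read 1383 and 1856 at 4 h with U0126 against 2104 and 2599 with FGF alone, a difference of -0.54 ± 0.18 (adjusted p = 0.0925; 0.00574 with the block). At 7 h and 12 h the groups overlapped, with differences of -0.06 ± 0.18 and -0.03 ± 0.18. The average over the 3 times was -0.21 ± 0.10 (adjusted p = 0.173; 0.0303 with the block), so it was called only where the experiment was in the model. The 3 other Elk4 probe sets were not called for it. Elk1 on 1421896_at ranged from 58.2 to 166, with an average U0126 effect of 0.34 ± 0.19 (adjusted p = 0.242), and its second probe set did not follow it (r = -0.122).

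**Figure D2:**
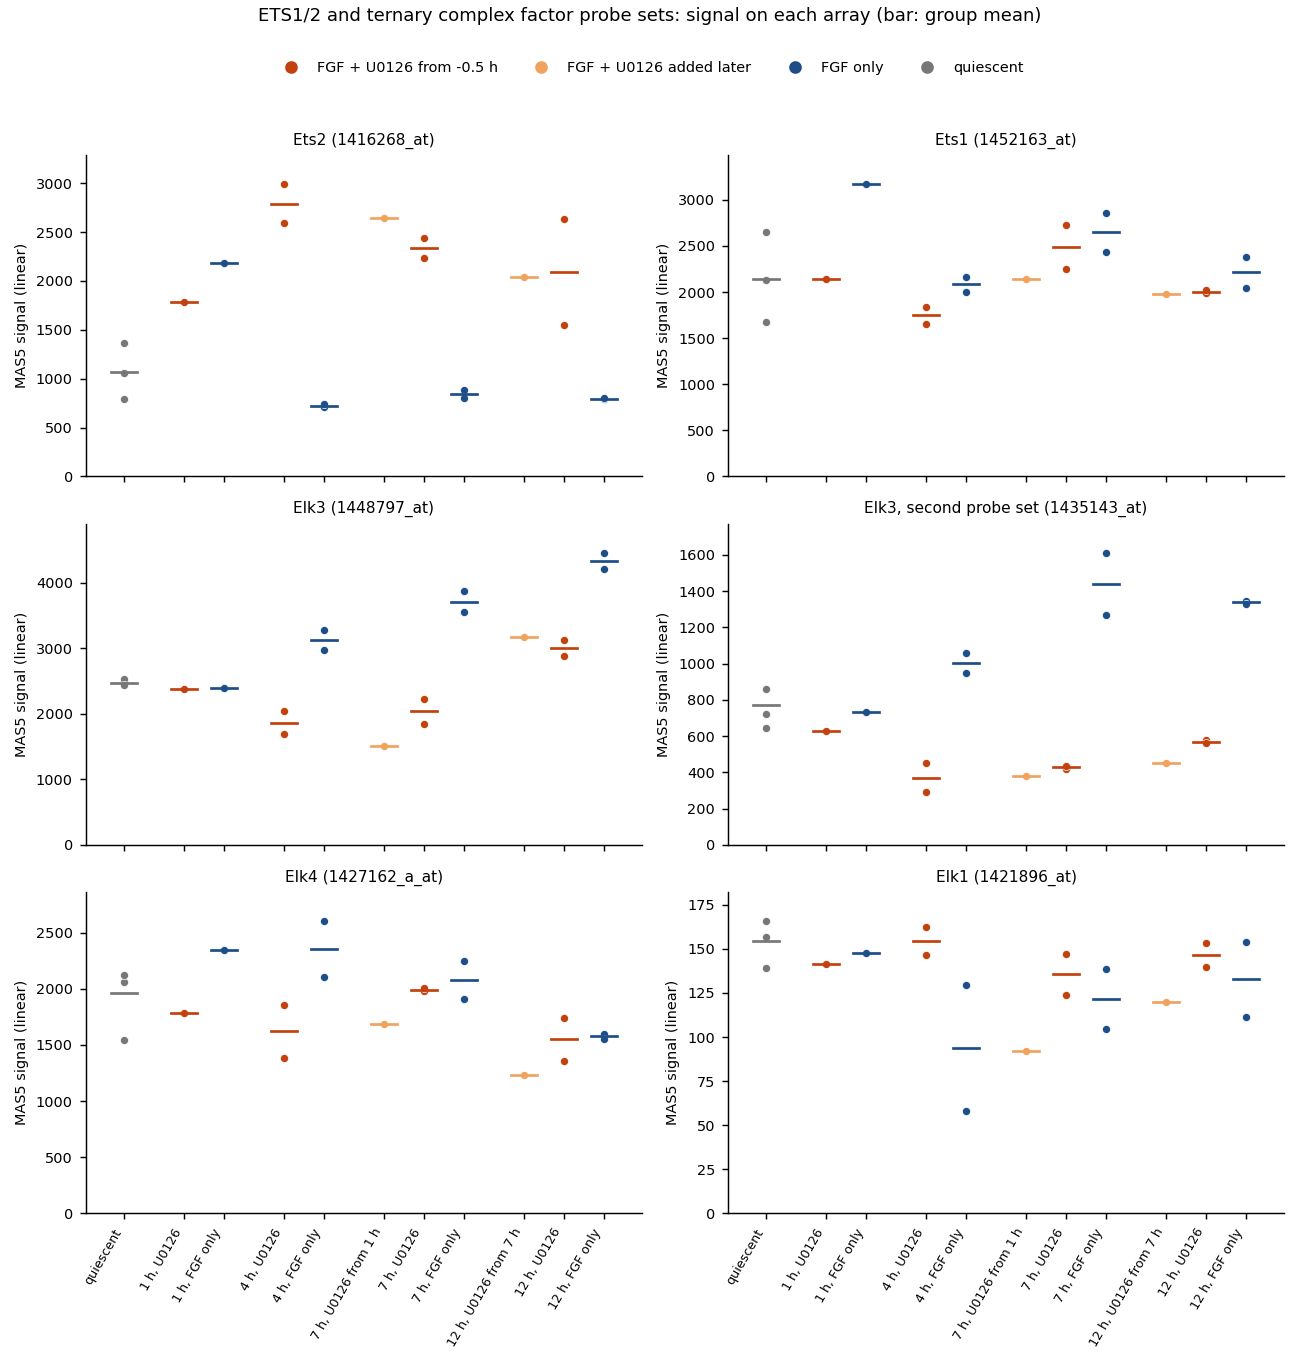
MAS5 signal (linear axis from 0) of 6 probe sets of Ets2, Ets1, Elk3, Elk4 and Elk1 on each array, by group; points, bars and colours are as in the plot of the PEA3 probe sets. Ets2 with U0126 from -0.5 h lies between 1551 and 2988 at 4, 7 and 12 h, above its FGF arrays at 706 to 880.4, and both Elk3 probe sets show the opposite order at each of these times.

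**Figure D3:**
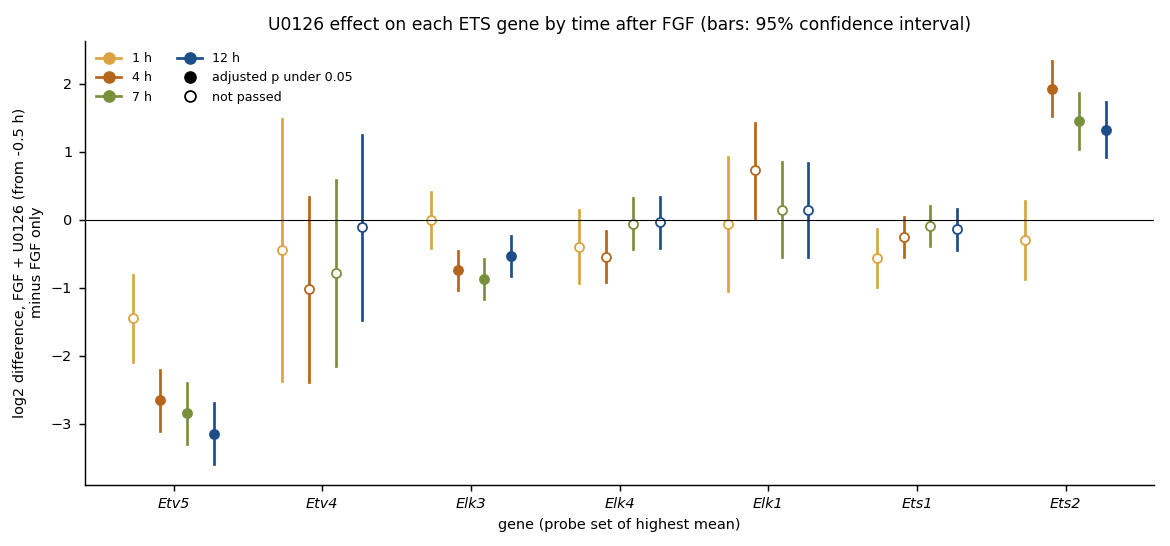
Log2 difference between FGF with U0126 from -0.5 h and FGF alone (vertical axis) at 1, 4, 7 and 12 h (colours) for each of the 7 tested genes; bars are 95% confidence intervals and filled points have an adjusted p under 0.05. Etv5 runs from -1.45 at 1 h to -3.15 at 12 h, Ets2 lies above 0 from 4 h on, and the intervals of the other genes that were not called are widest for Etv4.

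**Figure D4:**
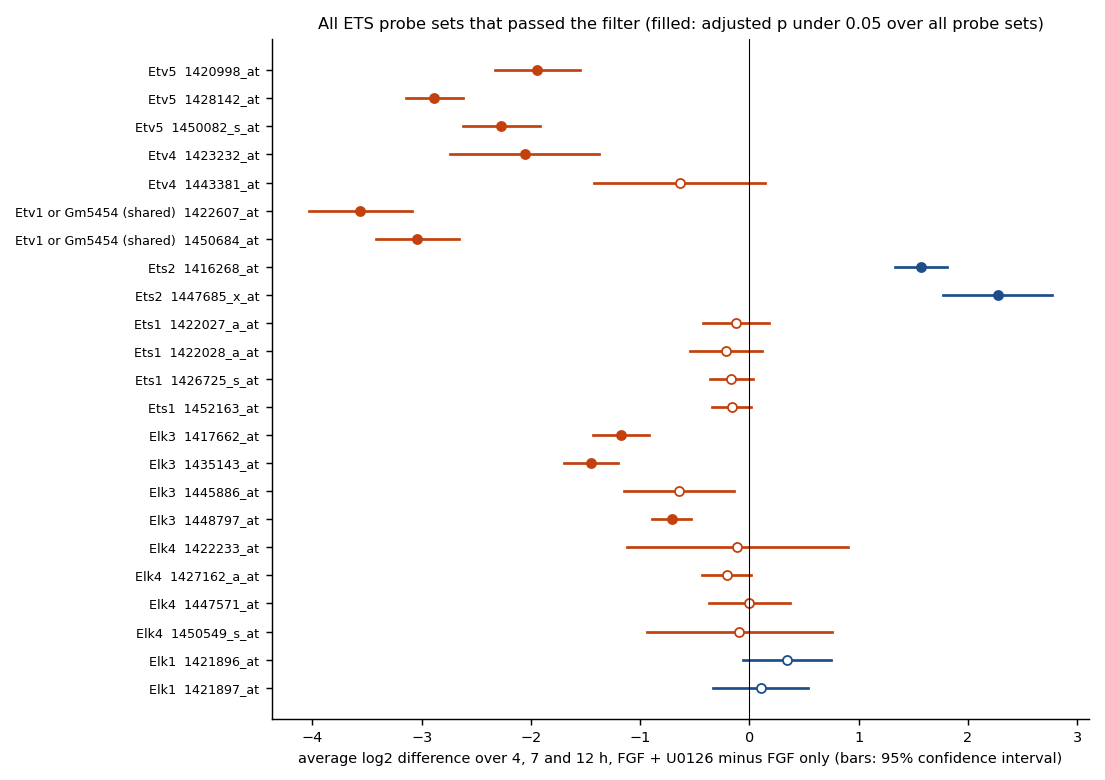
Average log2 difference over 4, 7 and 12 h between FGF with U0126 and FGF alone (horizontal axis) for the 23 ETS probe sets that passed the filter, 1 per row; bars are 95% confidence intervals and filled points have an adjusted p under 0.05 over 34537 probe sets. The PEA3 rows reach from -3.56 to -0.64, Ets2 lies at 1.57 and 2.27, and no row of Ets1, Elk4 or Elk1 is filled. The row of 1423232_at (Etv4) is drawn like the others, but its position, interval and fill are not read as a result. That probe set passed the filter only through FGF arrays.

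The late additions had 1 array each, without a replicate of their own, and the SE and p below take the spread from the other groups. With U0126 from 1 h, Etv5 read 162 at 7 h, against 1859 and 1629.9 with FGF alone, and fell by 3.32 ± 0.26 (adjusted p = 5.64e-06). From the 1 h FGF array, the time at which that arm departed, it differed by -1.63 ± 0.30 (adjusted p = 0.00647), which sets 1 array against 1 and has no replicate check. With U0126 from 7 h, Etv5 read 66.6 at 12 h, against 1439.8 and 1289 with FGF alone at 12 h, and fell by 4.10 ± 0.26 (adjusted p = 2.26e-06). Against the 7 h FGF arrays from which this arm departed it fell by 4.45 ± 0.26 (adjusted p = 7.29e-07). That array holds the lowest Etv5 signal of the 19, and it was -0.95 ± 0.26 from the 12 h arrays with U0126 from -0.5 h (adjusted p = 0.147; 0.0492 with the block).

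Ets2 on 1416268_at was high in both arms. With U0126 from 1 h it read 2643 at 7 h against 806 and 880.4 with FGF alone, a difference of 1.63 ± 0.23 (adjusted p = 0.000834). It differed from the 1 h FGF array (2185) by 0.27 ± 0.27 (adjusted p = 0.625), so the decline seen with FGF alone was not seen on this array. With U0126 from 7 h it read 2035 at 12 h, and rose by 1.34 ± 0.23 over FGF alone at 12 h (adjusted p = 0.00358) and by 1.26 ± 0.23 over FGF alone at 7 h (0.00511). From the 12 h arrays with early U0126 it differed by 0.01 ± 0.23 (adjusted p = 0.996). Those arrays lay far apart, at 1551 in experiment 1 and 2632 in experiment 2. Within experiment 1, from which the late array came, the difference was 0.39, so equality of late and early U0126 is not shown. On 1447685_x_at the difference from FGF at 12 h was called too (3.25 ± 0.50, adjusted p = 0.00204), whereas those from FGF at 7 h were not, at 0.90 ± 0.50 (0.512) with U0126 from 1 h and 1.09 ± 0.50 (0.298) with U0126 from 7 h.

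Elk3 on 1448797_at read 1509 at 7 h with U0126 from 1 h, a difference of -1.29 ± 0.17 from FGF alone (adjusted p = 0.000467) and of -0.66 ± 0.19 from FGF at 1 h (0.0772; 0.0161 with the block). With U0126 from 7 h it read 3166 at 12 h, against 4214 and 4455 with FGF alone, and the difference of -0.45 ± 0.17 did not pass (adjusted p = 0.161; 0.0488 with the block). The same arm on 1435143_at read 449.6 against 1347 and 1328, and fell by 1.54 ± 0.25 (adjusted p = 0.00305), so the 2 probe sets differ here in size. The shared Etv1 and Gm5454 probe set 1450684_at read 27.2 with U0126 from 1 h and 34 with U0126 from 7 h, with differences of -3.79 ± 0.38 and -3.63 ± 0.38 from FGF alone at 7 h and 12 h (adjusted p = 6.19e-05 and 9.33e-05; 2.15% and 3.05% of probe sets called).

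Of 7 tested genes, 3 were called with U0126 from 1 h against FGF at 7 h (background 3.59%) and 1 against FGF at 1 h (3.99%; 3 with the block, 12.4%). With U0126 from 7 h, 2 were called against FGF at 12 h (5.05%; 3 with the block, 11.3%) and 2 against FGF at 7 h (5.8%; 3 with the block, 12.6%). Against U0126 from -0.5 h at the same harvest, 0 were called for either late addition (background 0% and 0.674%), with 1 at an unadjusted p under 0.05 in each and, with the block, 0 for the first and 1 for the second (2.25%). Comparisons that share arrays, such as those with the FGF arrays at 7 h, are not independent of each other.

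Over the 11 group means, Etv5 and Ets2 correlated with r = -0.83, Elk3 and Ets2 with r = -0.762 and Elk3 and Etv5 with r = 0.514; these groups share treatments and arrays, and the values describe them only. Similar profiles were sought among 6153 genes, without the listed ETS genes. Each had group means with a range over 1 on the log2 scale and a highest group mean above the median of all signals. Those most like Etv5 were D10Wsu102e (r = 0.971), Cdk6 (0.967), a G1 cyclin-dependent kinase, and Spred1 (0.96), an inhibitor of the Ras to ERK step. Those most like Ets2 were Dnajb4 (0.962), Ifrd1 (0.956) and Npas4 (0.954), and those most like Elk3 were Tm4sf1 (0.93), Cav2 (0.917) and Arrb1 (0.916). For the representative probe set of Etv4 they were Map3k6 (0.934), Lbhd2 (0.905) and Camk2n1 (0.898), with the noise of that probe set described above.

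Of 18 other genes of the ETS family, 14 were tested, and for the average U0126 effect 1 was higher and 1 lower (2 and 2 with the block), with a median of 0.00 against 0.01 over all genes. In that comparison 11.7% of all genes were higher and 10.3% lower, and the counts of the lists that follow stand against the same shares. With the block 30.6% of all genes were called in either direction, and the block counts of these lists stand against that share. Etv6, a repressor of the family, fell by 0.61 ± 0.12 (adjusted p = 0.0015) and the repressor Etv3 rose by 0.29 ± 0.10 (0.0439). The block added Elf1 (0.35 ± 0.14; adjusted p = 0.101, and 0.00601 with the block) and Gabpa (-0.20 ± 0.08; 0.113, and 0.0447 with the block). At 12 h of FGF against quiescence, where 20.3% of all genes were called, Fli1 rose by 1.45 ± 0.32 (adjusted p = 0.00506) and Elf1 fell by 0.82 ± 0.25 (0.0317). With the block Etv3 (-0.45 ± 0.17, adjusted p = 0.0717, and 0.0297 with the block) and Elf2 (-0.37 ± 0.14, 0.0915, and 0.0381 with the block) were called there too. The share of all genes called at 12 h with the block is not given, so these additions have no background.

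Partners of the ternary complex factors, which are SRF, the MRTFs, CBP, p300 and a Mediator subunit, gave 0 calls of 6 for the average U0126 effect (median -0.07). Srf differed by -0.24 ± 0.12 (adjusted p = 0.18; 0.0347 with the block) and Mrtfa by -0.31 ± 0.17 (0.243; 0.0347 with the block). At 12 h of FGF 2 of the 6 were lower than in quiescent cells, against 20.3% of all genes called, Mrtfb with -0.83 ± 0.16 (adjusted p = 0.00157) and Crebbp with -0.62 ± 0.18 (0.0249). The block added Ep300 (-0.55 ± 0.20, adjusted p = 0.0714, and 0.0163 with the block), again without a share of all genes for that fit. Of 5 negative regulators, 2 rose with U0126 (median 0.20; 3 with the block, which added Cop1 at 0.20 ± 0.07, adjusted p = 0.0708, and 0.0117 with the block): Cic, whose protein represses the PEA3 genes and is inactivated by ERK signalling, by 0.49 ± 0.14 (adjusted p = 0.0188), and its partner Atxn1 by 0.45 ± 0.10 (0.00459). At 12 h of FGF Atxn1 fell by 1.05 ± 0.18 (adjusted p = 0.000604), and Cop1, a ubiquitin ligase for PEA3 proteins, fell by 0.41 ± 0.13 (0.033).

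Textbook targets of the factors moved in both directions. Like the other lists, they were chosen with earlier results of these data known, so their counts are descriptions and no independent test. Of 9 SRF and ternary complex factor targets, 6 fell and 1 rose with U0126 on average (median -0.56), against 10.3% and 11.7% of all genes. With the block a second rose, Fosb (0.87 ± 0.30; adjusted p = 0.0557, and 0.0329 with the block), whose mean signals were low. The early growth response genes fell: Egr1 changed by -4.06 ± 0.17 (adjusted p = 5.9e-10), Egr3 by -2.63 ± 0.11 (5.9e-10) and Egr2 by -2.03 ± 0.25 (3.03e-05), while Nr4a1 rose by 2.48 ± 0.18 (1.34e-07). At 1 h the U0126 effect on Nr4a1 was -2.00 ± 0.43 (adjusted p = 0.0962; 0.00243 with the block), opposite in sign to its later average, whereas that on Egr1 was -4.18 ± 0.41 (adjusted p = 0.000181), both from 1 array against 1 with the spread of other groups. Of 13 listed PEA3 and ETS1/2 targets, 10 were tested, and 4 fell and 2 rose (median -0.38), against the same 10.3% and 11.7% of all genes. The differences were -2.42 ± 0.09 for Dusp6, an ERK phosphatase (adjusted p = 3.97e-10), -1.28 ± 0.08 for Spred1 (5.94e-08) and -1.18 ± 0.08 for the urokinase receptor Plaur (9.84e-08), while the membrane metalloprotease Mmp14 rose by 1.64 ± 0.08 (5.6e-09). Spred1, like Etv5, rose with FGF at 4 h (1.15 ± 0.14, adjusted p = 0.000217). Of 6 genes of the FGF receptor and the ERK cascade, 3 were tested and none was called for the average U0126 effect (Fgfr1 -0.26 ± 0.09, adjusted p = 0.0544; 0.0192 with the block). Whether any of these targets was bound by an ETS factor in these cells was not tested.

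**Figure D5:**
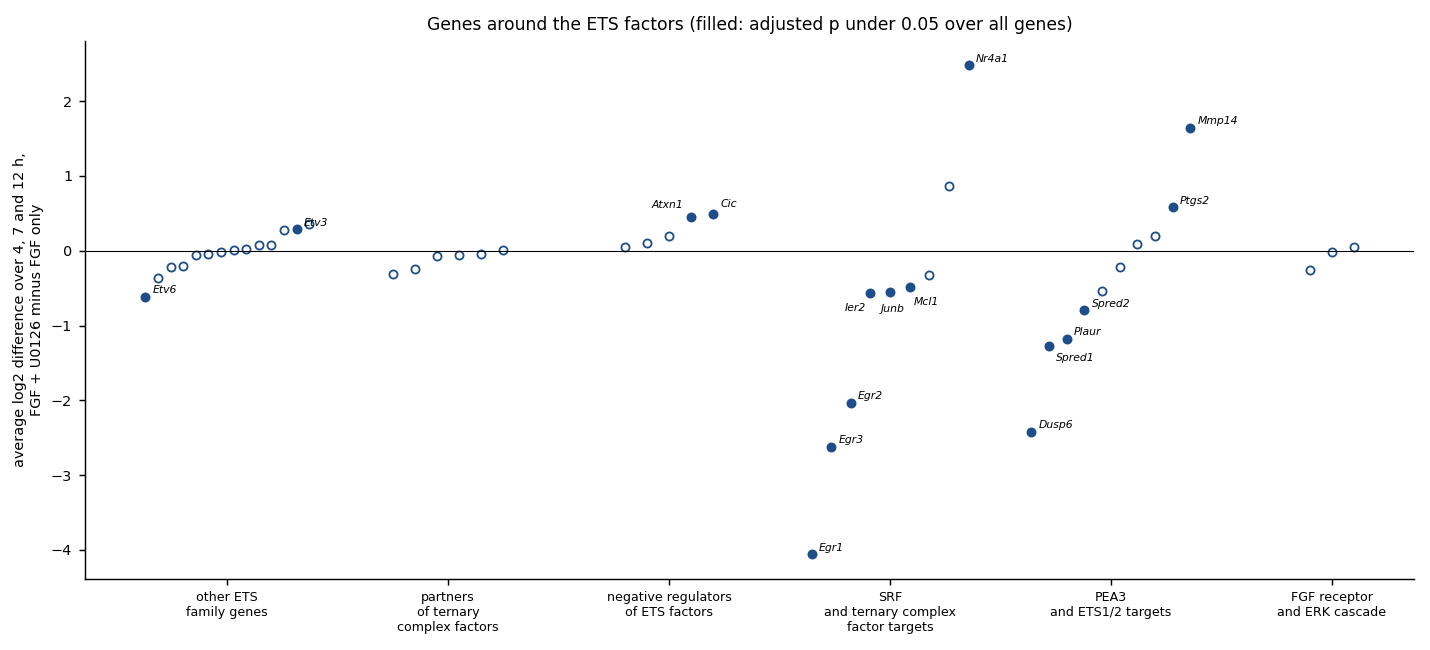
Average log2 difference over 4, 7 and 12 h between FGF with U0126 and FGF alone (vertical axis) for each tested gene of 6 lists (horizontal axis); each point is 1 gene, and filled, labelled points have an adjusted p under 0.05 over all genes. The called points of the other ETS genes and the negative regulators lie between -0.61 and 0.49 and the partners have none, whereas those of the 2 target lists span -4.06 (Egr1) to 2.48 (Nr4a1).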

How the data were processed

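RNA of 19 NIH3T3 samples was measured on Affymetrix mouse expression arrays, 1 array each. The deposited values are MAS5 signal intensity on a linear scale, per the submitters' processing notes, scaled to a trimmed mean of 500 on every array. Its version and the detection calls are not given in the sources used here. Values were taken to log2 after adding 13.6 (20th percentile of all values), replicates 1a and 1b of the quiescent cells were averaged, and a probe set was kept if 2 or more arrays had it above their own 40th percentile. The probe set with the highest mean stood for its gene. All 11 groups were fitted together in limma 3.58.1 (R 4.3.3; eBayes with a variance trend, 7 residual degrees of freedom), with two-sided tests and Benjamini-Hochberg adjustment over 14996 genes per comparison. A second fit of 34537 probe sets gave the values of single probe sets, including those shared by 2 genes.

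Samples of the same experiment number deviated together in 21 of 21 pairs of groups (r from 0.127 to 0.305). The main fit does not use this pairing, and calls and adjusted p come from it unless the block is named. Each comparison was also fitted with the experiment as a block. The genes, lists and named examples (all 8 ETS genes, the most significant of each list and the 3 genes of most similar profile) were chosen with earlier results of these data known. Alternatives were quantile and 75th percentile scaling, other offsets, filters, probe sets and fits, and leaving out each replicate. The workflow was tested on simulated data, and figures were drawn with matplotlib 3.10.9.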

Additional observations from a re-analysis of the deposited data

How the results depend on the processing

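Of 33 called gene results, none was lost or changed sign under quantile normalization, 75th percentile scaling, an offset of 1 or of 45.2, no filter, all probe sets, 3 separate quiescent arrays or the replicate block. Without a variance trend 3 were lost, with the probe set of highest variance 5 (all of Ets2: U0126 at 7 h, FGF + U0126 at 7 h and at 12 h against quiescence, and both late additions against FGF at 7 h), and with only the compared groups in the fit 1 of 32; that fit could not be made for U0126 at 1 h or for U0126 from 1 h against FGF at 1 h. Counts of called ETS genes moved to 1 for FGF at 1 h with the replicate block and for the U0126 effect at 1 h and FGF 1 h + U0126 against quiescence with the block or quantile normalization. The block also moved them to 2 for FGF at 4 h, 3 for U0126 from 1 h against FGF at 1 h and 1 for U0126 from 7 h against early U0126; other block values of the 7 genes that changed a call stand beside their results, and it changed no other call of the 7 genes except Ets1 with U0126 from 1 h against FGF at 1 h (-0.56; adjusted p = 0.142, and 0.0425 with the block) and Elk4 with U0126 from 7 h against FGF at 7 h (-0.74; 0.0588, and 0.0109). The count for FGF + U0126 against quiescence was 1 at 4 h without a trend or with only the compared groups, and 1 at 12 h without a trend or with the probe set of highest variance. That probe set gave 4 for FGF at 12 h and 1 for 12 h against 7 h, and turned Elk4 with U0126 from 7 h against FGF at 7 h to 0.78. Leaving out replicates gave 0 to 1 for FGF at 1 h, 1 to 2 for FGF at 4 h and at 7 h, and 1 to 2 for FGF + U0126 at 4, 7 and 12 h against quiescence. It moved Etv4 (1443381_at) between -0.007 and 1.15 for FGF at 12 h, between -0.69 and 0.47 for U0126 at 12 h and between -1.89 and 0.32 for U0126 at 7 h. Where 1 array was left in a group, its spread was taken from the other groups. The median of all genes moved by over 0.1 only for FGF at 4 h against 1 h (-0.12; -0.04 after quantile normalization) and U0126 from 1 h against FGF at 1 h (-0.12; -0.02). Signals near background limit what can be read for Etv4, and the 1 h and late groups had 1 array each.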
